A study of Mus musculus with 6 samples.

Results

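Polycomb repressive complex 2 (PRC2) writes methylation on lysine 27 of histone H3, a mark of silent genes. The genes described here are its catalytic subunits Ezh2 and Ezh1, its core subunits Eed and Suz12, its accessory subunits Jarid2, Mtf2 and Phf19, and Kdm6b, a demethylase that removes the mark. They were chosen by symbol, and all 8 were found among the 28048 genes of the deposited matrices. Their UMIs (unique molecular identifiers, each counting 1 captured RNA molecule) were summed per library and per reverse-transcription well. A cell was kept when it had 200 or more genes, no more than 2000 UMIs, and mitochondrial genes supplied 30% of these or less.

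The cells were bone marrow-derived T-cell progenitors grown on OP9-DL1, a mouse stromal line that presents the Notch ligand Delta-like 1. WT progenitors carried a Bcl11b-YFP reporter on both alleles. ΔTE progenitors carried the same reporter and also lacked the distal timing enhancer of Bcl11b on both alleles. Both were on a C57BL/6 background and aged 2 to 4 months, with marrow of 6 to 8 male and female mice pooled per genotype and enriched for CD117. Cells of each genotype were sorted as DN1, DN2a or DN2b, successive stages before and through T-lineage commitment. DN2a was sorted as Bcl11b-negative and DN2b as Bcl11b-positive. The sorted cells were cultured again for 4 days with IL-7, IL-2, SCF, IL-15 and Flt3-L. Each of the 6 conditions is 1 library, split over 3 reverse-transcription wells. Whether the wells of a library came from 1 culture is not given in the sources used here. They share a pool of mice and were not taken as replicates. No difference between conditions could therefore be tested, and the intervals given cover counting error only.

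PRC2 needs Eed and Suz12 beside a catalytic subunit to be stable and active. Ezh2 is the usual catalytic subunit of dividing cells, and Ezh1 is better known from cells that have left the cycle. Jarid2 on the one hand, and the Polycomb-like proteins Mtf2 and Phf19 on the other, define alternative forms of the complex and help to bring it to its targets. In early T-cell progenitors this mark lies over the silent Bcl11b locus, and the complex is known as a brake on the timing of its activation.

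Promoter windows are shown for the members that hold an E2F-type motif, since several members differed between cell-cycle classes in all kept cells. Most of those differences were no longer called once cells with stromal markers were left out, as described below. RefSeq windows of 250 bases before to 50 after the start (GRCm38.p6) existed for 7 of the 8 members. They were searched on both strands for 4 motifs of 8 letters, TTTGGCGC, TTTCCCGC, TTTCGCGC and TTTGCCGC. A window with more than 1 of them was counted once. Of all 32851 RefSeq windows 2.26% held at least 1 of them, and 0.514% held TTTGGCGC and 1.07% TTTCCCGC. Each line gives 30 bases on the gene's strand, 5′ to 3′, with the motif in capitals. The Ezh2 window is chr6:47595009-47595038 (minus strand), that of Suz12 is chr11:79992876-79992905 (plus strand) and that of Phf19, which holds the motif on the opposite strand, is chr2:34914166-34914195 (minus strand).
Ezh2: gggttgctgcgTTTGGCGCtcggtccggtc
Suz12: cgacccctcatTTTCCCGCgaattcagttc
Phf19: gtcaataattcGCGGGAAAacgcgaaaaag
The windows of Ezh1, Eed, Jarid2 and Mtf2 held none of these letters. A match is a description of the sequence and not a site of binding.

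The 60671 kept cells fell into libraries of 3401 to 19489 cells with medians of 386 to 485 UMIs per cell. No barcode was shared between libraries. The WT DN2a library stood apart with a median mitochondrial share of 13.3%, against 20.9% to 23.9% in the other 5. Levels are therefore given as CPM, the UMIs of a gene per 1000000 UMIs of nuclear-encoded genes. On this scale the median log2 ratio over genes was -0.016 for ΔTE over WT DN2a, -0.00024 for WT DN2a over DN1 and -0.041 for WT DN2b over DN2a. With mitochondrial UMIs in the total, it was -0.14, 0.15 and -0.19, and under 0.1 in size in the other 6 comparisons. The share of genes past 1.2-fold then went from 10.3% higher and 16.9% lower to 5.69% and 28.2% for ΔTE over WT DN2a, from 23.6% and 18.2% to 36.5% and 8.91% for WT DN2a over DN1, and from 11.03% and 23.9% to 5.45% and 39.1% for WT DN2b over DN2a. Summed stromal markers (9 of 9 listed genes in the matrices, such as Col1a1 and Bgn) ranged from 301 CPM in ΔTE DN1 to 2258 CPM in WT DN2a, and 1 well of ΔTE DN2a reached 3882 CPM, against 413 and 607 CPM in its sister wells. A level in a library is a sum over all of its cells, so that fewer cells of a type and less RNA per cell cannot be told apart.

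Bcl11b, the gene whose enhancer was deleted, was read as a check of the labels. DN2a and DN2b were sorted by its absence and presence, so its rise between them is not independent of the sort. Bcl11b stood at 303, 622 and 1105 CPM in WT DN1, DN2a and DN2b and at 115, 326 and 705 CPM in the matching ΔTE libraries. This 9.60-fold range is therefore not a neutral scale for the members. Over the same 6 libraries the highest level exceeded the lowest 1.12-fold for Kdm6b, 1.19-fold for Ezh2, 1.197-fold for Ezh1, 1.21-fold for Suz12 and Jarid2, 1.27-fold for Eed and 1.56-fold for Mtf2. Phf19 ranged 1.61-fold, on 88 UMIs in all. Mtf2 was thus the member with the widest range among those with enough UMIs to measure.

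Ezh2 (ENSMUSG00000029687), the main histone methyltransferase of the complex, gave 11568 UMIs. Its level was 458, 456 and 513 CPM in WT DN1, DN2a and DN2b and 433, 448 and 455 CPM in ΔTE DN1, DN2a and DN2b. The 3 WT DN2b wells (491 to 540 CPM) lay above all WT DN1 and WT DN2a wells (449 to 474 CPM), while ΔTE DN2b wells spread from 396 to 523 CPM and overlapped every other ΔTE library. Without cells holding 2 or more stromal-marker UMIs, Ezh2 read 466, 496 and 529 CPM in WT DN1, DN2a and DN2b. The wells of these 3 libraries then did not overlap. The matching ΔTE libraries read 436, 473 and 459 CPM. Ezh1 (ENSMUSG00000006920), the second methyltransferase, gave 993 UMIs and lay between 35.8 CPM in ΔTE DN1 and 42.9 CPM in WT DN2a. The 95% Poisson intervals of its 6 libraries all overlapped, from 26.9 to 48.5 CPM in ΔTE DN2b, where 48 UMIs were counted, to 38.4 to 47.7 CPM in WT DN2a.

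Suz12 (ENSMUSG00000017548), the scaffold of the core, stood at 376, 403 and 456 CPM in WT DN1, DN2a and DN2b and at 412, 380 and 448 CPM in the ΔTE libraries. WT DN2b wells (415 to 471 CPM) were above all WT DN2a and WT DN1 wells (361 to 408 CPM). Without cells holding 2 or more stromal-marker UMIs, the lowest WT DN2b well (422 CPM) lay under the highest WT DN2a well (433 CPM). It stayed above the highest WT DN1 well (403 CPM). Eed (ENSMUSG00000030619), which reads the methyl mark and stimulates the enzyme, went the other way in WT, with 87.8, 77.5 and 69.0 CPM at DN1, DN2a and DN2b. In ΔTE it was 86.1, 81.9 and 86.0 CPM with overlapping wells. The sum of Ezh2, Eed and Suz12 lay between 910 CPM in ΔTE DN2a and 1038 CPM in WT DN2b, a 1.14-fold range, and ΔTE over WT ratios of the sum were 0.01 (-0.05 to 0.08), -0.04 (-0.10 to 0.01) and -0.07 (-0.17 to 0.03) on the log2 scale at DN1, DN2a and DN2b.

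Mtf2 (ENSMUSG00000029267), a Polycomb-like subunit that guides the complex to CpG-rich DNA, gave 13103 UMIs. It was 491 CPM in WT DN1, 510 CPM in WT DN2a and 704 CPM in WT DN2b, and 453, 501 and 615 CPM in ΔTE DN1, DN2a and DN2b. The WT wells were tight, at 489 to 492, 505 to 516 and 684 to 729 CPM, so that the 3 WT starts did not overlap. The ΔTE DN2b wells (552 to 655 CPM) lay above all ΔTE DN1 wells (424 to 466 CPM) and overlapped the ΔTE DN2a wells, which read 361, 560 and 563 CPM. In order of level, ΔTE DN1 and WT DN1 were lowest, WT DN2a and ΔTE DN2a did not differ beyond their wells, and both DN2b libraries were highest with WT above ΔTE.

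Jarid2 (ENSMUSG00000038518), a cofactor that binds the complex and its targets, was 209, 204 and 225 CPM in WT and 247, 234 and 225 CPM in ΔTE at DN1, DN2a and DN2b. At DN1 the ΔTE wells (241 to 254 CPM) were above the WT wells (193 to 220 CPM), and at DN2a and DN2b the wells overlapped, with ΔTE DN2b alone spanning 154 to 274 CPM. Phf19 (ENSMUSG00000026873), a further Polycomb-like subunit, had between 6 and 28 UMIs per library, or 2.84 to 4.57 CPM, and 1 ΔTE DN2b well had none. Differences of Phf19 between libraries were not detectable at this depth, since every interval of its ratios included 0. Kdm6b (ENSMUSG00000018476), the demethylase, was the steadiest member, at 126, 127 and 135 CPM in WT and 132, 128 and 141 CPM in ΔTE.

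**Figure D1:**
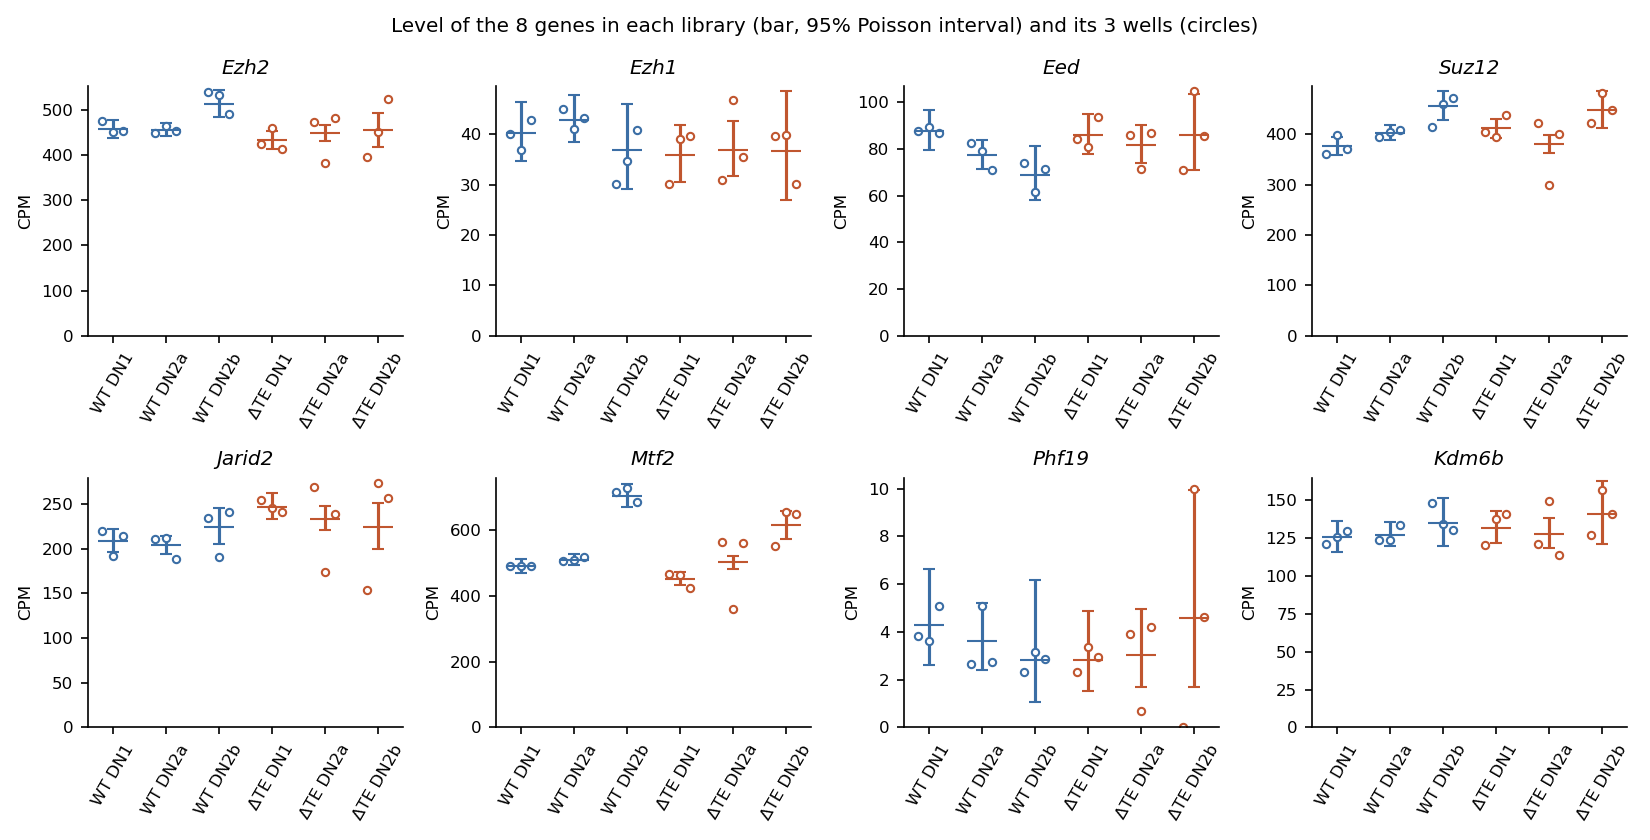
Level in CPM (axis from 0) of the 8 genes in each library, with the 95% Poisson interval as a bar and the 3 wells as circles. Mtf2 is higher in the DN2b libraries (704 and 615 CPM) than in the DN1 libraries (491 and 453 CPM), and the other members vary less between libraries or rest on few UMIs.

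The genotype comparison asks whether loss of the timing enhancer went with another level of the Polycomb machinery after the same start. At DN1, 1 of 8 members was past 1.2-fold (Phf19, on 13 and 20 UMIs), where 24.4% of 10832 genes with at least 100 UMIs were. The ratios of Jarid2 and Mtf2 were 0.24 (0.12 to 0.37) and -0.12 (-0.20 to -0.03) on the log2 scale, with Jarid2 wells higher and Mtf2 wells lower in ΔTE. Phf19 wells also lay lower, so 3 of 8 members had wells that did not overlap, against 16.9% of all genes.

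At DN2a no member was past 1.2-fold and none had wells apart in all kept cells, where 27.3% and 13.6% of all genes did. Without cells holding 2 or more stromal-marker UMIs, Ezh1 was past the fold at -0.33 (-0.62 to -0.04). Its ΔTE wells were then lower (30.9 to 37.0 against 41.2 to 44.1 CPM). So were those of Ezh2 (440 to 489 against 494 to 497 CPM), at a ratio of -0.07 (-0.15 to 0.01). The shares of all genes were not counted without those cells. In all kept cells Jarid2 had the largest ratio of the members with over 1000 UMIs, 0.20 (0.09 to 0.31), and Ezh2 and Mtf2 were at -0.03 and -0.02. The Jarid2 ratio rested on single ΔTE DN2a wells, and was -0.0067 without the one where Jarid2 was highest and 0.35 without the one where it was lowest. At DN2b, 2 members were past 1.2-fold against 44.8% of genes: Eed at 0.32 (-0.05 to 0.68), on 113 and 146 UMIs, and Phf19 at 0.69 on 6 UMIs in each library. Mtf2 was lower in ΔTE DN2b at -0.19 (-0.32 to -0.07) and was the single member with wells apart, against 16.5% of all genes. Ezh2 was lower by a similar amount, -0.18 (-0.32 to -0.03), with overlapping wells. Of the 8 members 7 passed the minimum of 100 UMIs, Phf19 being the exception. No shared genotype direction ran through the members, whose median ratio was -0.05, -0.02 and -0.0072 at the 3 starts beside -0.0049, -0.02 and -0.01 for all genes.

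The start comparison asks how the members differed between cells that began as DN1, DN2a or DN2b. From WT DN1 to WT DN2a no member was past 1.2-fold, where 41.8% of genes were, and 2 had wells apart, Mtf2 higher and Eed lower, against 43.4% of genes. Without cells holding 2 or more stromal-marker UMIs, Eed wells overlapped and Mtf2 wells stayed higher. Wells of Ezh2 and Suz12 were then also higher, at ratios of 0.090 (0.011 to 0.17) and 0.16 (0.072 to 0.25). The share of all genes was not counted without those cells. In all kept cells, WT DN2b over WT DN2a put Mtf2 at 0.47 (0.38 to 0.55) and Phf19 at -0.35 past the fold, 2 of 8 against 34.9% of genes. Wells were apart for 4 members, with Ezh2, Suz12 and Mtf2 higher and Ezh1 lower, against 28.4%. Without cells holding 2 or more stromal-marker UMIs, the wells of Suz12 and Ezh1 overlapped. Those of Ezh2 and Mtf2 stayed apart, and Kdm6b wells were just apart (from 126.674 CPM in DN2b against up to 126.665 CPM). The Ezh2 ratio was 0.17 (0.070 to 0.27) in all kept cells and 0.095 (-0.0056 to 0.19) without those cells. WT DN2b over WT DN1 gave 4 of 8 past the fold against 49.2% of genes, with Mtf2 at 0.52 (0.43 to 0.62) and Suz12 at 0.28 (0.16 to 0.39) higher, and Eed at -0.35 (-0.63 to -0.07) and Phf19 lower. Wells were apart for 6 of 8, namely Ezh2, Suz12, Mtf2 and Kdm6b higher and Eed and Phf19 lower, against 33.8%. These comparisons share libraries and are not independent of each other.

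In ΔTE, Mtf2 at DN2b was again above DN1 beyond the wells, and no other member's wells were apart in any start comparison. ΔTE DN2a over DN1 had no member past the fold and none with wells apart, against 38.1% and 20.6% of genes. ΔTE DN2b over DN2a had Mtf2 at 0.30 (0.18 to 0.41) and Phf19 past the fold, against 43.3%, and no member with wells apart, against 14.2%. This Mtf2 ratio fell within 1.2-fold without the ΔTE DN2a well rich in stromal markers (0.13) and without stromal-marker cells (0.23). Suz12 was 0.24 (0.10 to 0.37) there, with the highest ΔTE DN2a well at 422.9 CPM and the lowest ΔTE DN2b well at 422.7 CPM. ΔTE DN2b over DN1 had Mtf2 at 0.44 (0.32 to 0.56) and Phf19 past the fold, against 54.7%, and Mtf2 alone with wells apart, against 33.7%. Suz12 was 0.12 (-0.01 to 0.26) and Eed 0.00 (-0.32 to 0.30) in the comparison with DN1. By fold, the count of members stood near the background share in WT DN2b over DN1 and under it in the other 8 comparisons. By wells it stood above the background in ΔTE over WT DN1 and in WT DN2b over DN2a and over DN1, and under it in the other 6, and these counts over 8 genes were not tested. Both counts are for all kept cells, stromal-marker cells included. Phf19 is among the members past the fold in WT DN2b over DN1. Its 88 UMIs lie under the background's minimum of 100 UMIs. The background was matched in UMIs neither to the members nor to the gene lists below. Counting error alone takes genes of few UMIs past 1.2-fold more often. A count under the background by fold therefore does not show that the members varied less than genes of like depth.

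**Figure D2:**
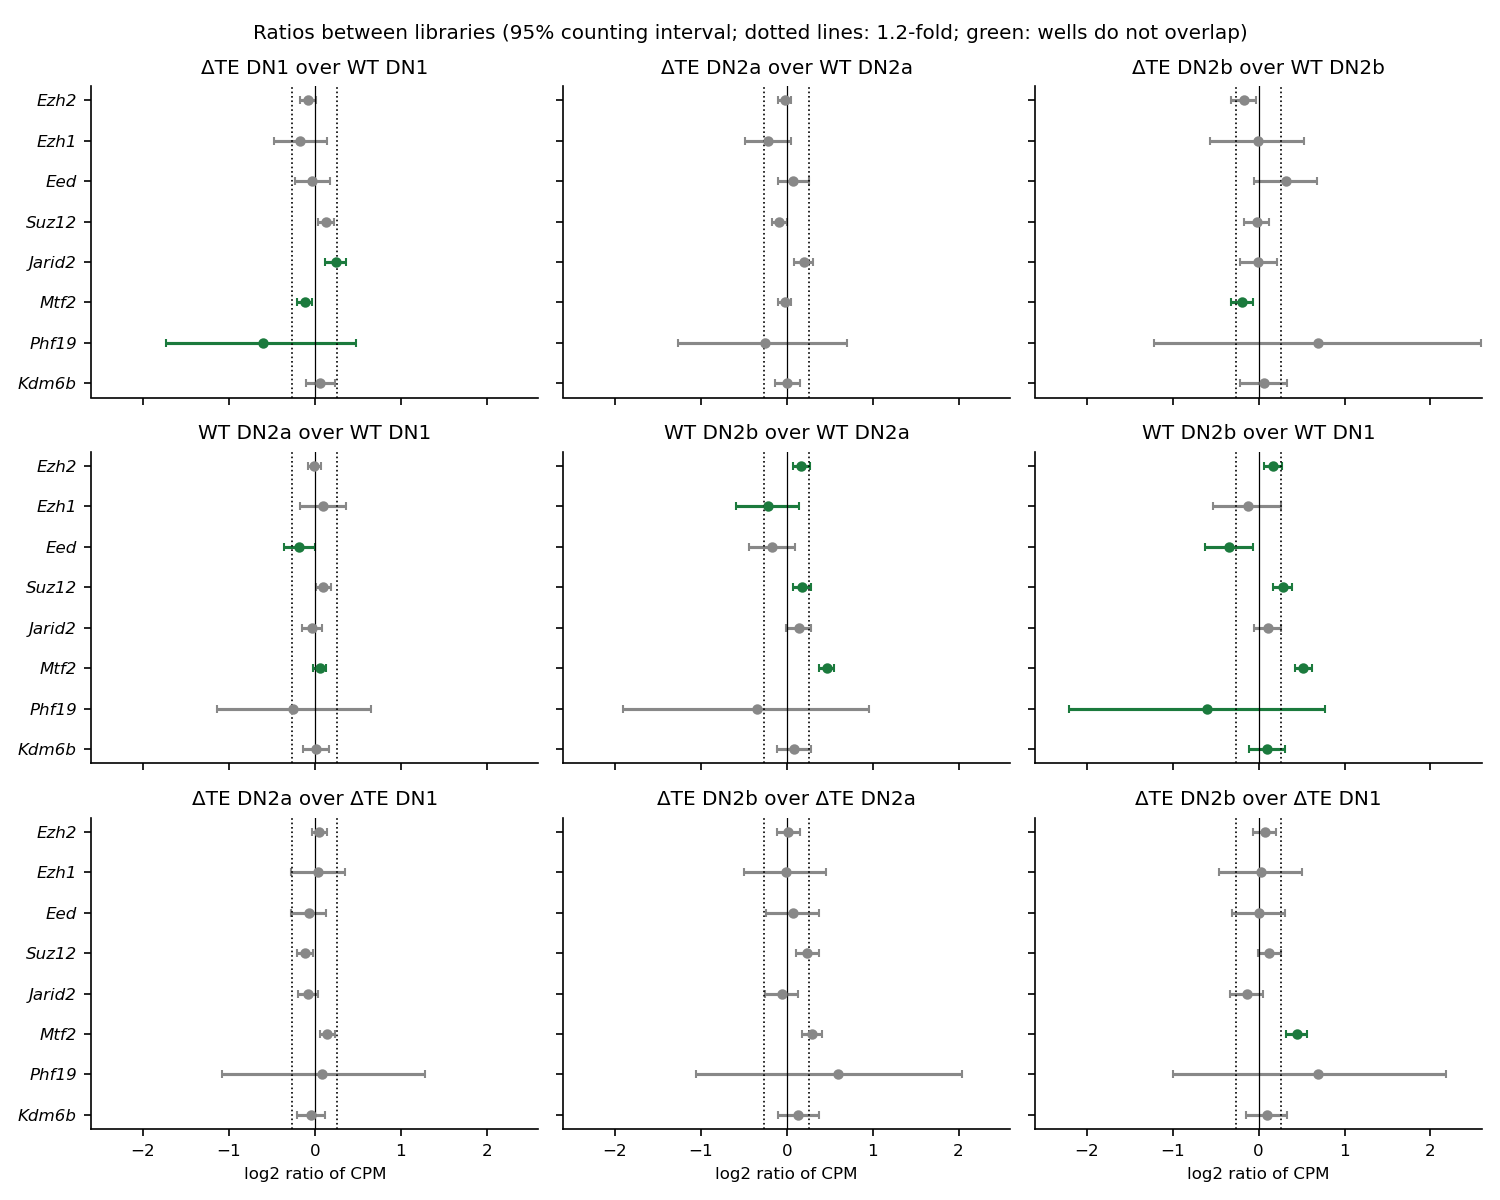
Log2 ratio of CPM between pairs of libraries for the 8 genes, with 95% exact conditional intervals; dotted lines mark 1.2-fold and green marks pairs whose wells do not overlap. The Mtf2 ratio of DN2b over DN1 is 0.52 in WT and 0.44 in ΔTE, and every Phf19 interval is wide and includes 0.

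The higher Mtf2 level at DN2b moved with marker sums of other kinds. T markers (6 of 8 listed genes in the matrices) summed to 895 and 764 CPM in WT and ΔTE DN2b and 131 and 55.5 CPM at DN1, and G2/M genes (29 of 29) to 7560 and 7641 CPM against 5523 and 6018 CPM. ILC or NK markers (12 of 12) were also higher at DN2b, at 726 and 1055 CPM against 432 and 361 CPM. Myeloid markers (11 of 11) were lower, at 62.4 and 44.9 CPM against 615 and 432 CPM, and progenitor markers (7 of 7) too, at 234 and 131 CPM against 750 and 660 CPM. Without cells holding 2 or more T-marker UMIs, a comparison chosen after seeing the data, the WT ratio of Mtf2 for DN2b over DN1 was 0.49 (0.39 to 0.59), and the ΔTE ratio 0.40 (0.28 to 0.52). Without stromal-marker cells it was 0.54 and 0.44. Under the other settings of scaling and of kept cells it lay between 0.28 (cells with no S or G2/M UMI) and 0.55 in WT, and between 0.29 (a mitochondrial limit of 20%) and 0.53 in ΔTE. The part of the remaining markers in the result was not tested.

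The ΔTE DN2a library held 1 well that stood apart, and several members were low in it. There Ezh2 read 383 CPM against 474 and 482 CPM in the sister wells, Suz12 299 against 400 and 423 CPM, Mtf2 361 against 560 and 563 CPM and Jarid2 175 against 239 and 270 CPM. Ezh1 (46.8 CPM) and Kdm6b (150 CPM) were instead highest in that well. Cells with 2 or more stromal-marker UMIs made up 13.7% of it, against 3.03% and 1.83% of the sister wells, and its median mitochondrial share was 16.6% against 22.4% and 24.5%. Without those cells the well read 440 CPM for Ezh2, 336 CPM for Suz12, 423 CPM for Mtf2 and 188 CPM for Jarid2, still under the sister wells for all 4. Without this well the summed Ezh2, Eed and Suz12 ratio of ΔTE over WT DN2a was 0.06 in place of -0.04, and Mtf2 went from -0.02 to 0.14.

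**Figure D3:**
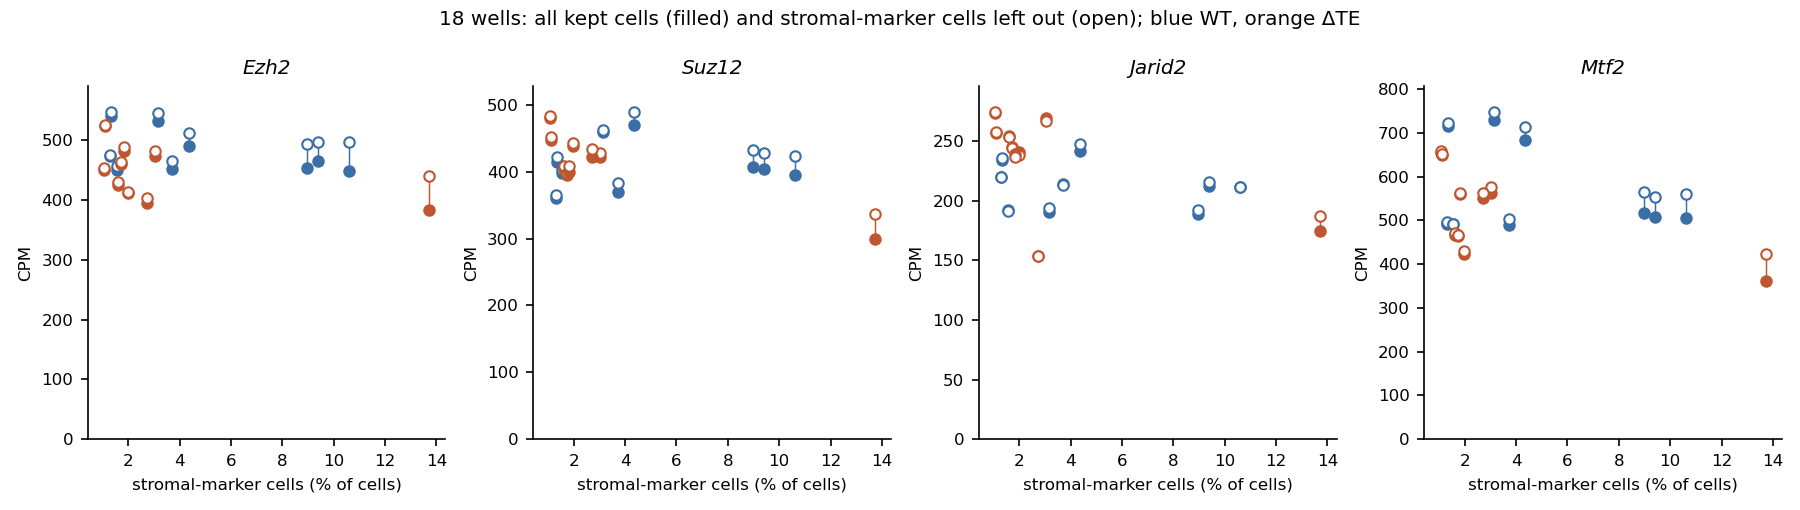
Level in CPM of Ezh2, Suz12, Jarid2 and Mtf2 in the 18 wells (axis from 0) against the percent of cells with stromal markers, with all kept cells (filled) and without stromal-marker cells (open). The ΔTE DN2a well at 13.7% is low for all 4 genes, and its Mtf2 level goes from 361 to 423 CPM once those cells are left out.

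Cell classes were then compared within each of the 6 libraries, which does allow a test (edgeR's quasi-likelihood test on summed counts with the library as a block, Benjamini-Hochberg over all genes). A cell was put in a class by 2 or more UMIs of a marker list and more of that list than of any other. It was compared with cells holding no UMI of any of these lists. The members are in none of the lists. These classes are ranges of a score and not cell types, and many cells sat at exactly 2 UMIs, such as 1060 of 1752 T-marker cells and 285 of 3236 stromal-marker cells. Doublets were not called or removed. The p-values measure the spread between these libraries only, since libraries of 1 genotype share a pool of mice. Phf19 had too few UMIs to be tested in any class.

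Stromal-marker cells had less of the core complex and of Mtf2. Ezh1 and Kdm6b were called higher, though not under every setting. In these 3236 cells, led by Bgn and Col1a2, Mtf2 was 184 CPM against 538 CPM in the 32499 unmarked cells and fell by 1.24 (SE 0.15, adjusted p = 5.5e-16 by edgeR) on the log2 scale. Ezh2 was 189 against 483 CPM and fell by 1.10 (SE 0.15), Suz12 206 against 425 CPM and fell by 0.93 (SE 0.15), and Eed 31.1 against 86.1 CPM and fell by 1.31 (SE 0.24). Ezh2, Suz12 and Mtf2 were lower in 6 of 6 libraries. Eed was lower in the 5 libraries where stromal-marker cells held an Eed UMI, and the remaining 1 had none.

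Ezh1, at 52.4 against 38.6 CPM, rose by 0.64 (SE 0.23, adjusted p = 0.011 by edgeR) and was higher in 4 of 6 libraries. Kdm6b, at 160 against 131 CPM, rose by 0.47 (SE 0.15, adjusted p = 0.0048 by edgeR), also in 4 of 6. Both calls were lost without ΔTE DN2a (0.37 and 0.38, adjusted p = 0.31 and 0.081 by edgeR), and the Kdm6b call without WT DN2a (0.34, adjusted p = 0.15). Both were also lost with DESeq2 and in edgeR with no filter on low counts (0.52 and 0.33, adjusted p = 0.052 and 0.062). Jarid2, at 192 against 222 CPM, differed by 0.06 (SE 0.14). edgeR's normalization and plain CPM differ here, since the median gene was 0.28 lower in stromal-marker cells by CPM and 0.03 lower in the fit. In all, 6 of 7 members tested were called, against 59.9% of all genes, so that a call in this class is common. Bcl11b stood at 140 CPM in stromal-marker cells and 475 CPM in unmarked cells. With both classes limited to cells with 2 or more G2/M UMIs, a comparison chosen after seeing the data, the edgeR differences of Ezh2, Eed, Suz12 and Mtf2 were -0.65, -1.001, -0.48 and -0.78 and that of Kdm6b 0.52, all called, and Ezh1 was not called (0.73). The share of all genes called under this limit was not counted, and the 59.9% does not apply to it.

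T-marker cells had more Mtf2 and no other called member. In these 1752 cells, in which Cd3g gave 80.4% of the list's UMIs, Mtf2 was 781 CPM against 538 CPM in unmarked cells, a difference of 0.43 (SE 0.08, adjusted p = 1.2e-05 by edgeR) that was higher in 6 of 6 libraries. By library it ranged from 489 to 899 CPM, against 474 to 709 CPM in unmarked cells. The background was 3.08% of genes called. Ezh2 was 499 against 483 CPM (0.03, SE 0.09), Suz12 430 against 425 CPM (-0.04, SE 0.10) and Eed 82.8 against 86.1 CPM (-0.05, SE 0.21). The Mtf2 call held with both classes limited to G2/M-marker cells (0.37, adjusted p = 0.0038 by edgeR). At 3 or more UMIs of the list it was 0.39 with an adjusted p of 0.17 by edgeR. T-marker cells held 69.9% G2/M-marker cells and unmarked cells 54.5%.

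No member passed the test in the ILC or NK, myeloid or progenitor classes by edgeR, where 2.38%, 3.79% and 1.84% of genes did. At an unadjusted p under 0.05, 1, 2 and 2 members were counted, and DESeq2 called none. In 1812 ILC or NK-marker cells Mtf2 was 471 CPM against 538 CPM, a difference of -0.24 (SE 0.08, adjusted p = 0.12 by edgeR), lower in 6 of 6 libraries. Nkg7 gave 56.9% of that list's UMIs. With Nkg7 taken off the list, an alternative chosen after seeing the data that left 606 cells, Mtf2 was lower by edgeR (-0.90, adjusted p = 8.0e-05), and at 3 or more UMIs it was also lower (-0.74, adjusted p = 0.0018). The share of all genes called was not counted for these 2 alternatives. In 789 myeloid-marker cells Ezh2 was 335 against 483 CPM (-0.50, SE 0.24, adjusted p = 0.30 by edgeR). The 1549 progenitor-marker cells gave -0.26 (SE 0.11) for Suz12 and 0.27 (SE 0.13) for Jarid2, with adjusted p of 0.40 and 0.53 by edgeR. Only 5 myeloid-marker and 14 progenitor-marker cells came from ΔTE DN2b.

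**Figure D4:**
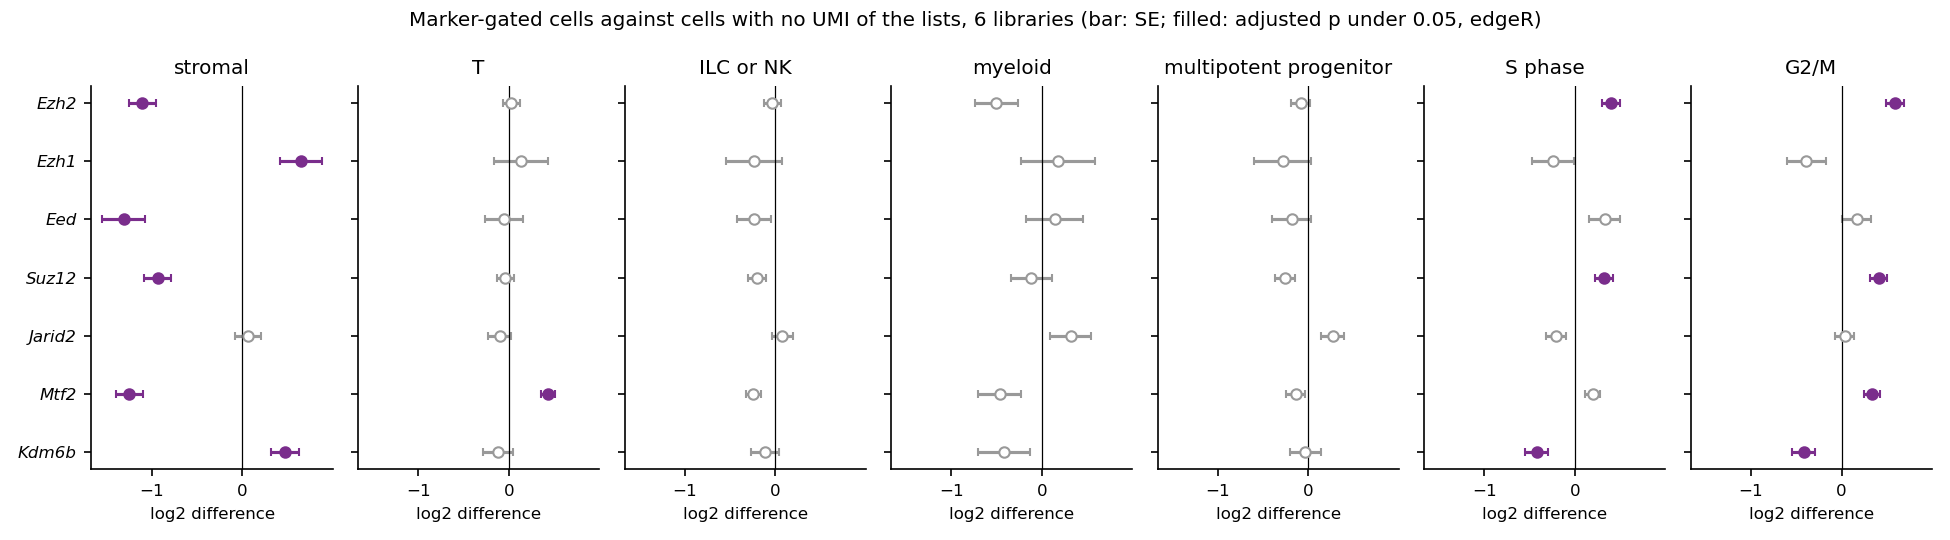
Log2 difference by edgeR (with SE) of the 7 testable members between marker-gated cells and cells with no UMI of the lists, over 6 libraries, with filled points for an adjusted p under 0.05. Stromal-marker cells show 6 filled points, T-marker cells Mtf2 alone, and the ILC or NK, myeloid and progenitor classes none.

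Cell-cycle classes were set by 2 or more UMIs of a G2/M list (34167 cells, led by Top2a, Mki67 and Smc4) or, failing that, of an S-phase list (10063 cells), and compared with the 5188 cells that held no UMI of either. In G2/M-marker cells Ezh2 was 483 against 311 CPM and rose by 0.59 (SE 0.10, adjusted p = 1.2e-06 by edgeR), Suz12 was 417 against 310 CPM and rose by 0.41 (SE 0.10, adjusted p = 0.00054), and Mtf2 was 534 against 414 CPM and rose by 0.33 (SE 0.09, adjusted p = 0.0026). Kdm6b was 125 against 162 CPM and fell by 0.42 (SE 0.12, adjusted p = 0.0069 by edgeR), a call that was lost with no filter on low counts (-0.30, adjusted p = 0.062). Each of these directions was seen in 6 of 6 libraries. Ezh1 was lower in 6 of 6 too, at 35.7 against 45.8 CPM, and did not pass (-0.39, SE 0.21, adjusted p = 0.21 by edgeR). In all 4 of 7 members were called, against 20.6% of genes.

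In S-marker cells 3 of 7 were called, against 16.9% of genes: Ezh2 (0.39, SE 0.10, higher in 4 of 6 libraries) and Suz12 (0.32, SE 0.09, 6 of 6) higher and Kdm6b (-0.42, SE 0.13) lower in 6 of 6. The DESeq2 fit called none of these. The Suz12 call was lost without ΔTE DN1 (0.27) or ΔTE DN2a (0.29), and the Kdm6b call without any 1 of WT DN2a (-0.43), WT DN2b (-0.37), ΔTE DN2a (-0.40) and ΔTE DN2b (-0.35). Without ΔTE DN2b, Mtf2 was called (0.26).

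The cells without cycle genes held many stromal-marker cells, and leaving these out ended most of the calls. Stromal-marker cells were 22.3% of the cells with no cycle UMI, 2.53% of G2/M-marker cells and 2.89% of S-marker cells. With them left out, Ezh2 was still higher in G2/M-marker cells (0.33, SE 0.08, adjusted p = 0.00092 by edgeR), and it was the single member called. Suz12 was 0.20 (adjusted p = 0.14 by edgeR), Mtf2 0.04 (adjusted p = 0.86 by edgeR) and Kdm6b -0.38 (adjusted p = 0.0503 by edgeR). No member was called in S-marker cells, though 4 were under an unadjusted p of 0.05. How many of all genes were called with stromal-marker cells left out was not counted. The loss of calls can therefore not be read as particular to the members. In the cells with no cycle UMI, the summed Ezh2, Eed and Suz12 level was 660 CPM in WT DN2a and 540 CPM in ΔTE DN2a, where stromal-marker cells were 36.0% and 28.9% of them, and 949 and 710 CPM without these. Among the windows printed above, Ezh2 and Suz12 hold a motif, and Mtf2, which was called with them in all kept cells, holds none.

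**Figure D5:**
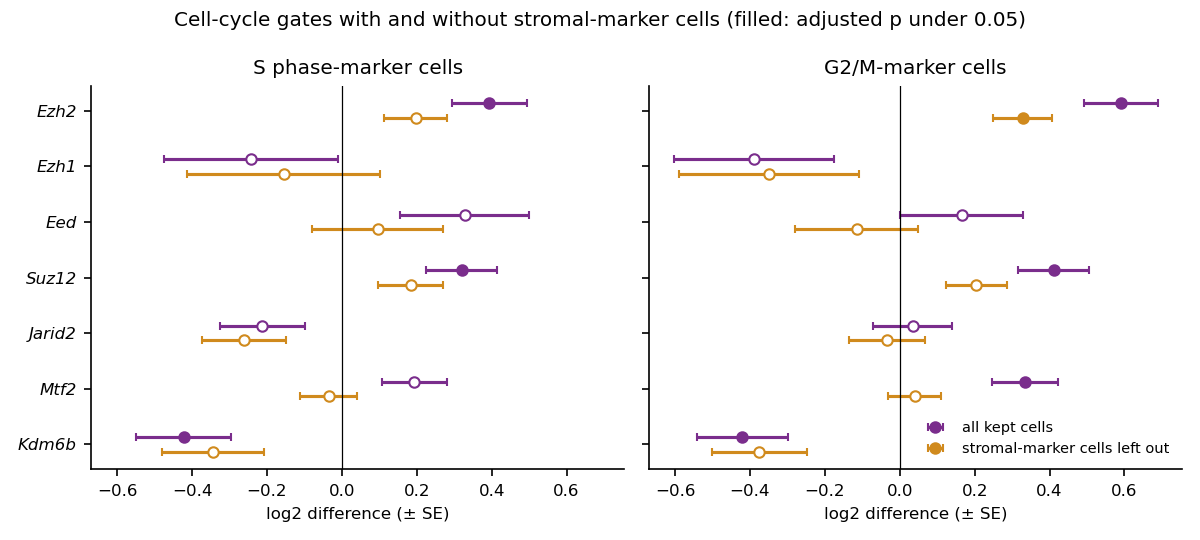
Log2 difference by edgeR (with SE) of 7 members in S-marker and G2/M-marker cells against cells with no cycle UMI, for all kept cells and with stromal-marker cells left out; filled points have an adjusted p under 0.05. In G2/M-marker cells Mtf2 goes from 0.33 to 0.04 and Ezh2 from 0.59 to 0.33 once stromal-marker cells are left out.

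The interaction of class with genotype asks whether a class difference differed between WT and ΔTE. Of 49 interactions none passed (lowest adjusted p = 0.78 by edgeR), and 2 were under an unadjusted p of 0.05, both for Ezh2, in the T-marker (-0.40, SE 0.20) and ILC or NK-marker (-0.43, SE 0.17) classes.

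Other genes of the Polycomb system were described by lists. Of 7 further PRC2 subunits 6 were in the matrices. Rbbp4 and Rbbp7, histone-binding subunits, lay between 281 and 299 CPM and between 180 and 196 CPM over the 6 libraries. No list member was past 1.2-fold within ΔTE, where 38.1% to 54.7% of all genes were, and the most in any comparison was 3 of 6, in WT DN2b over DN1, against 49.2%. Aebp2, which stabilises the complex, was 139 CPM in WT DN2b and 107 CPM in ΔTE DN2b. Its wells overlapped, and 44.8% of all genes were past 1.2-fold in that comparison. In stromal-marker cells Rbbp4 and Rbbp7 fell (by 0.39, SE 0.14, and by 0.38, SE 0.16, edgeR), 2 of the 5 tested, against 59.9% of all genes called.

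The PRC1 list holds the subunits of the complex that binds the PRC2 mark and ubiquitinates histone H2A. Of its 19 genes 13 were past 1.2-fold in WT DN2b over DN1, 8 higher and 5 lower, and 12 in ΔTE DN2b over DN1, again 8 higher and 4 lower, beside the background shares of 49.2% and 54.7%. Between DN1 and DN2b the Polyhomeotic subunit Phc3 read 102 and 157 CPM in the WT libraries, and 107 and 171 CPM in the ΔTE libraries. Cbx2, a reader subunit, read 19.8 and 31.7 CPM in WT, and 15.3 and 32.0 CPM in ΔTE. Between genotypes 3, 4 and 6 of 19 were past the fold at DN1, DN2a and DN2b, against 24.4%, 27.3% and 44.8% of all genes. Pcgf5, a subunit of variant PRC1, was 707 CPM in WT DN2b and 483 CPM in ΔTE DN2b. In T-marker cells Phc3 was the 1 called of 14 tested, against 3.08% of all genes.

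Among 19 opposing factors, such as Kdm6a, a further demethylase of the mark, and the trithorax-type methyltransferases, at most 7 were past the fold in any comparison. These 7 were in WT DN2b over DN1, where 49.2% of all genes were past it. The median ratio of the list lay between -0.16 and 0.09. Kdm6a was 219, 188 and 205 CPM in WT and 183, 166 and 158 CPM in ΔTE at DN1, DN2a and DN2b. Nsd2, which writes methylation at lysine 36, was 517, 566 and 688 CPM in WT and 483, 542 and 648 CPM in ΔTE. In stromal-marker cells 11 of the 19 were called, all lower, a share near the 59.9% of all genes called there. The 4 Polycomb deubiquitinase genes had 3 above the minimum and at most 1 past the fold in any comparison. That 1 was in WT DN2a over DN1, WT DN2b over DN2a and ΔTE DN2a over DN1. Of all genes 41.8%, 34.9% and 38.1% were past the fold there.

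Textbook Polycomb targets were near the limit of detection, with 2 of 14 above 100 UMIs. Cdkn2a, the cell-cycle inhibitor locus under Polycomb control, had 64 UMIs and between 0.645 and 4.25 CPM. Hoxa7 had 84 UMIs, at 10.1 and 5.24 CPM in WT and ΔTE DN1 and at most 1.52 CPM in the other 4 libraries. Ebf1, a B-lineage factor that stromal cells also express, was 152 CPM in WT DN2a and 85.3 CPM in ΔTE DN2a, the libraries richest in stromal-marker cells, and its difference in those cells was 7.75 (SE 0.18).

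Over the 18 wells, genes of similar pattern were named by Pearson r of log2(CPM + 1) among 5948 genes with at least 1000 UMIs, as a description over wells that share libraries. Mtf2 was nearest to Xylt1 (r = 0.96) and Ldlrad4 (0.95), Ezh2 to Atp8b4 (0.90) and Mboat1 (0.88), and Suz12 to Cul3 (0.91) and Rock1 (0.90). Jarid2 was nearest to Eea1 (0.85) and Shoc2 (0.84), Eed to Depdc5 (0.84) and Rab3gap2 (0.82), and Kdm6b to Srsf9 (0.79) and Gnb1l (0.77). Among the members, r was 0.80 for Ezh2 with Mtf2, 0.76 for Suz12 with Mtf2, 0.61 for Eed with Jarid2 and -0.21 for Eed with Mtf2. Depth, stromal share and start differ between the same wells.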

How the data were processed

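Libraries were made by sci-RNA-seq3 from fixed cells, with the molecule labelled as nuclear RNA, and the method marks RNA with a barcode in each reverse-transcription well. The authors deposited UMI counts per gene and cell, unnormalized, for 6 libraries; the submitters' processing notes name the build mm9, and the aligner is not given in the sources used here. Gene and cell tables were deposited with them. Counts were summed per library and well in Python 3.11.15 (pandas 2.3.3, scipy 1.17.1) over kept cells and scaled to UMIs of nuclear-encoded genes seen in at least 15 cells. Intervals were exact at 95%, Poisson for levels and conditional binomial for ratios. A ratio was called past 1.2-fold, and wells were called apart when all 3 of 1 library lay above all 3 of the other. Cell classes were tested with edgeR 4.0.16 (filterByExpr, TMM, glmQLFit, glmQLFTest) in R 4.3.3 at an adjusted p of 0.05, with DESeq2 1.42.0 as an alternative. On simulated data the edgeR step recovered 29.5% (myeloid) to 93.5% (S phase) of 200 genes changed 2-fold. These data had a fixed spread and no library effect beyond depth. Recovery of differences smaller than 2-fold, as most of those reported here are, was not measured. Library totals of kept cells ran from 1717136 to 9048728 UMIs, and floors and intervals cover counting error only. Members, lists and alternatives were chosen with earlier results of these data known. Named genes were the 8 members, the 2 nearest genes of each member with at least 1000 UMIs, and examples of the fixed lists. Leaving out T-marker cells, taking Nkg7 off its list and limiting type classes to G2/M-marker cells were added after seeing the data.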

Additional observations from a re-analysis of the deposited data

Results flagged for a closer look

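In 38 sets of 6 per-library log2 ratios (a member in marked over unmarked cells, with UMIs in every library), 3 had 1 library far from the others by Dixon's criterion, which flags about 1 set in 20 by chance. The Mtf2 ratio of myeloid-marker over unmarked cells was 1.03 in ΔTE DN2b, where 5 myeloid-marker cells were counted, and -0.49 to -0.27 in the other 5 libraries. The Kdm6b ratio of G2/M-marker cells over cells with no cycle UMI was -0.98 in ΔTE DN2b and -0.51 to -0.28 in the other 5. The Eed ratio of S-marker cells over cells with no cycle UMI was 0.85 in ΔTE DN2a and 0.19 to 0.40 in the other 5.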

How the results depend on the processing

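No paired analysis of conditions was possible because each condition is 1 library, and the class tests already hold the library as a block. Of the summed Ezh2, Eed and Suz12 log2 ratios, those that moved beyond their interval are given here. Using all UMIs as the total gave -0.17 for ΔTE over WT DN2a, 0.17 for WT DN2a over DN1 and 0.00 (-0.00038) for WT DN2b over DN2a. A mitochondrial limit of 20% gave -0.096, -0.11 and 0.053 for ΔTE over WT at DN1, DN2a and DN2b, 0.041 and 0.077 for WT DN2b over DN2a and DN1, and 0.23 for ΔTE DN2b over DN1. No mitochondrial limit gave 0.11 for WT DN2a over DN1 and 0.022 for WT DN2b over DN2a. At least 300 genes per cell gave -0.0070 for ΔTE DN2b over DN1, and leaving out stromal-marker cells 0.10 for WT DN2a over DN1. Cells with no S or G2/M UMI gave -0.28, -0.29 and 0.038 for ΔTE over WT at DN1, DN2a and DN2b. They gave -0.32, 0.36 and 0.039 for WT DN2a over DN1, DN2b over DN2a and DN2b over DN1, and -0.32, 0.68 and 0.36 for the same 3 comparisons in ΔTE. Wells left out in turn moved the sum between -0.14 and 0.061 for ΔTE over WT DN2a, between -0.13 and 0.071 for ΔTE DN2a over DN1 and between 0.017 and 0.22 for ΔTE DN2b over DN2a, with the extremes from wells of ΔTE DN2a. Among single members, Eed of WT DN2b over DN1 turned to 0.058 in cells with no S or G2/M UMI. Phf19 turned at 300 genes per cell to -0.76 for ΔTE over WT DN2b, 0.19 for WT DN2b over DN2a, and -0.25 and -0.30 for ΔTE DN2b over DN2a and DN1. At most 2000 genes in place of 2000 UMIs gave 0.045 for Phf19 in WT DN2b over DN2a. With wells left out Phf19 ranged from -0.37 to 1.34 for ΔTE over WT DN2b, -0.50 to 0.069 for WT DN2b over DN2a, -0.46 to 1.26 for ΔTE DN2b over DN2a and -0.37 to 1.34 for ΔTE DN2b over DN1. The count of members called in T-marker cells went from 1 to 0 at 3 or more UMIs of the list. In ILC or NK-marker cells it went from 0 to 1 with no filter on low counts, at 3 or more UMIs, and without Nkg7. In S-marker cells it went from 3 to 0 with DESeq2 and without stromal-marker cells, and lay between 1 and 3 with each library left out. In G2/M-marker cells it went from 4 to 1 without stromal-marker cells. The share of all genes called was counted under the main setting only. The causes were not tested. Of 711 alternatives for single members between conditions 626 stayed within the interval, and 408 of 432 with wells left out.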
